A study of Homo sapiens with 6 samples.

Results

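The genes described here are 9 transcription factors that drive epithelial-mesenchymal transition (EMT), together with GRHL2, a factor of epithelial cells that opposes it. They are SNAI1, SNAI2, TWIST1, TWIST2, ZEB1, ZEB2, PRRX1, TCF4, TCF3 and GRHL2, taken by their symbols as 10 of the 23346 gene rows of a single RNA-seq count table. The cells were BT549, a human breast cancer line labelled mesenchymal and wild type in genotype. 3 libraries came from cells given NC siRNA, a negative control small interfering RNA, and 3 from cells given BNC2 siRNA, both at 20 nM with RNA collected 6 d after transfection. BNC2 encodes basonuclin 2, a zinc finger protein, and the comparison asked how the transcripts of the cells differed once it was depleted. The BNC2 siRNA was a mixture of 3 duplexes, so the effect of a single duplex cannot be read from these data, and a single cell line was used.

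EMT is the process by which epithelial cells lose their junctions and polarity and take on a motile, mesenchymal form. The SNAIL (SNAI1, SNAI2) and ZEB (ZEB1, ZEB2) zinc finger proteins bind short DNA elements called E-boxes and repress epithelial genes such as CDH1, which encodes E-cadherin. The TWIST proteins are basic helix-loop-helix (bHLH) factors that pair with E proteins, among them TCF3 (also known as E2A) and TCF4 (E2-2), and ID proteins block such pairs by binding E proteins without binding DNA. PRRX1 is a homeobox factor of mesenchymal cells, and GRHL2 activates junction genes and represses ZEB1.

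Because each member was read after a siRNA mixture, the guide strands are shown first, since they are the sequences that the treatments differed in. Each is written 5′ to 3′, with the seed (bases 2 to 8, the part that pairs first with a transcript) in capitals and t for the DNA bases at the end.
BNC2 siRNA (1): uUUACACUgaucacaagucct
BNC2 siRNA (2): uUGUCAUAgaaugucuucctt
BNC2 siRNA (3): uUUCGGCUucguacagaggtt
NC siRNA: aCGUGACAcguucggagaatt

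The 19-base targets of the BNC2 guides lay in coding sequence of the canonical BNC2 transcript, in exons 4, 6 and 7 of 7 (GRCh37, minus strand, chr9:16583000-16583018, chr9:16436834-16436852 and chr9:16419045-16419063). The search covered only the canonical transcripts of genes tested here or in the lists below. Each target was found in 1 of these, that of BNC2, and the NC target in none. Shorter matches to the seeds were then sought on the transcript strand of the canonical 3′ UTRs. TATGACA, the match to the seed of BNC2 siRNA (2), occurred once in ZEB1 and TCF4 and at 2 places in ZEB2. AGCCGAA, the match to the seed of BNC2 siRNA (3), occurred once in TCF4. AGTGTAA, for BNC2 siRNA (1), and TGTCACG, for NC siRNA, were in the 3′ UTR of no member. These 5 sites are printed because they are the only matches to a seed in the canonical 3′ UTRs of the members, with the matched letters in capitals and the sequence read from GRCh37.
ZEB1 (chr10:31817010-31817032, plus strand): atgaaggaTATGACAtgaagctt
ZEB2, first (chr2:145142572-145142594, minus strand): ataaatatTATGACAtatatgtg
ZEB2, second (chr2:145141712-145141734, minus strand): gagattaaTATGACAaagattct
TCF4, siRNA (2) (chr18:52894632-52894654, minus strand): tatagaccTATGACAaatatata
TCF4, siRNA (3) (chr18:52894074-52894096, minus strand): acctgtgtAGCCGAAgtagtgtg

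The 3′ UTRs of ZEB1, ZEB2 and TCF4 have 2543, 5373 and 5853 bases, and matches are more frequent in long ones. TATGACA was present in 10.1% of the 11486 tested genes with a 3′ UTR, and in 23.2% of the 3331 whose 3′ UTR was at least as long as that of ZEB1. Among those 3331 genes, 31.3% of those with TATGACA and 29.9% of those without it were called lower after BNC2 siRNA. For AGCCGAA, which 4.74% of the same genes held, the shares were 36.7% and 29.9%. The part of these seeds in the values of the members was not tested.

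The libraries held 16093978 to 18246254 counts on genes, so that 3 counts, the floor used here, corresponded to 0.168 to 0.191 CPM (counts scaled to the library total, normalised by TMM). BNC2 itself had 1165, 919 and 973 counts in the NC libraries and 610, 648 and 653 after BNC2 siRNA. The groups did not overlap, and the level after BNC2 siRNA was 64.6% of that in NC siRNA (log2 fold change -0.63, SE 0.09, edgeR quasi-likelihood test with Benjamini-Hochberg adjustment, adjusted p = 8.2e-06), so the targeted transcript was reduced but not lost. The 5 mesenchymal markers were VIM, FN1, CDH2, SPARC and ZEB1, which is itself a member. Their summed level was 6370 to 6460 CPM in NC siRNA and 6500 to 6750 CPM after BNC2 siRNA. VIM and SPARC made up most of it, with means of 3024 and 2347 CPM in NC siRNA and 3418 and 1636 CPM after BNC2 siRNA. Of 7 epithelial markers, 4 had at most 3 counts in every library, and their summed level was 0.662 to 1.24 CPM and 1.16 to 1.81 CPM. Most of the latter was ESRP2, a splicing factor of epithelial cells, with 8, 7 and 2 counts in NC siRNA and 13, 23 and 17 after BNC2 siRNA, which did not overlap but did not pass the filter, while KRT19 had 3, 5 and 2 against 1, 0 and 0. In bulk RNA, fewer cells expressing a gene and less of its RNA per cell cannot be told apart.

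A very large part of the transcriptome differed between the groups, and the members have to be read against it. Of 12186 genes tested, 72.9% were called at an adjusted p of at most 0.05, 36.6% higher and 36.2% lower, and in 74.9% the libraries of the groups did not overlap. 9 of the 10 members passed the filter on low counts. 6 of those 9 were called, 4 higher (SNAI2, TWIST1, ZEB1 and TCF3) and 2 lower (ZEB2 and TCF4), and the same 6 were those without overlap. This count is close to the background, and the median log2 fold change of the 9 members was 0.09 against 0.0014 over all genes tested. SNAI2, TWIST1 and TCF3 were called higher by at least 2-fold, as were 8.07% of all genes tested, and ZEB2 was called lower by at least 2-fold, as were 10.1%. The members did not move as a block, and each family held genes that differed in direction or call.

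**Figure D1:**
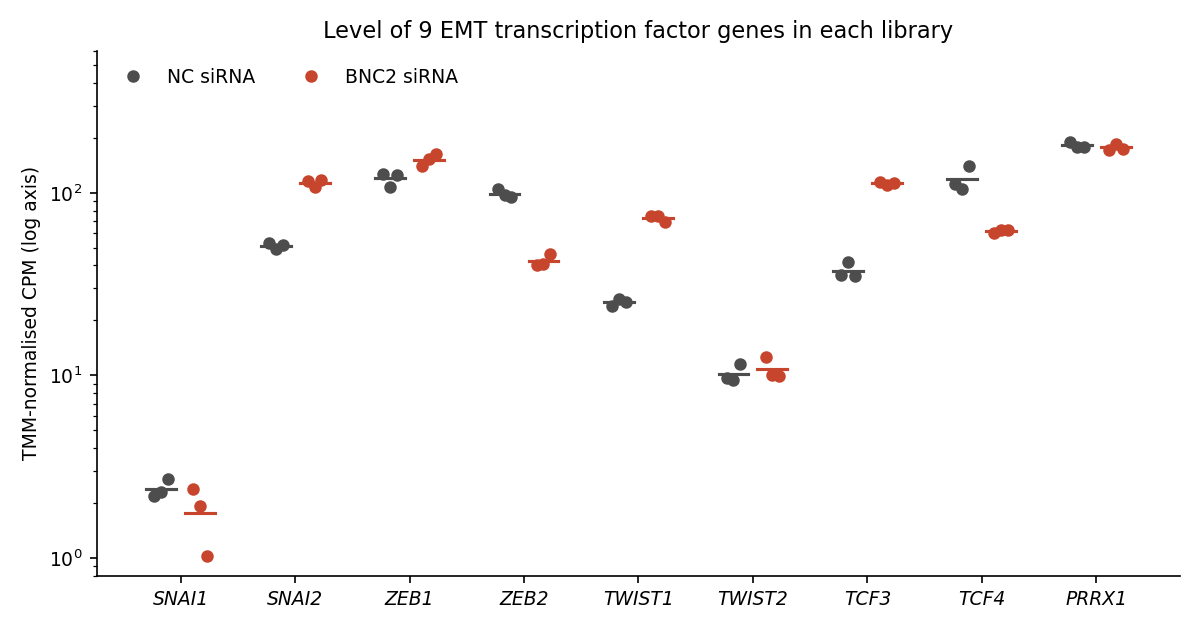
Level of the 9 members that passed the filter in each library, in TMM-normalised CPM on a log axis, with NC siRNA libraries in grey, BNC2 siRNA libraries in red and lines at the group means (n = 3). The points of SNAI2, TWIST1, TCF3, ZEB1, ZEB2 and TCF4 separate by group, while those of SNAI1, TWIST2 and PRRX1 overlap.

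In the SNAIL family, SNAI2 rose 2.21-fold and SNAI1 was not called. SNAI2 (SLUG; GRCh37, 8:49830157-49834299, minus strand) had 940, 878 and 863 counts in the NC libraries and 1990, 1905 and 1850 after BNC2 siRNA. Every BNC2 siRNA library was far above every NC library. Its level went from 51.4 ± 1.95 CPM to 113.7 ± 5.46 CPM (SD, n = 3). The log2 fold change was 1.15 (SE 0.06, edgeR adjusted p = 1e-10). SNAI1 (SNAIL; 20:48599517-48605423, plus strand) had 39, 41 and 45 counts in NC siRNA and 41, 34 and 16 after BNC2 siRNA. The groups overlapped, and the lowest value was that of BNC2 siRNA replicate 3. Its log2 fold change was -0.42 (SE 0.27), and the edgeR test did not call it (adjusted p = 0.17). With so few counts the 95% interval (1.96 SE each way) ran from -0.94 to 0.10, so neither a decrease of that size nor a slight increase could be told from no difference. Without BNC2 siRNA replicate 3 the log2 fold change of SNAI1 was -0.16.

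The 2 ZEB genes went in opposite directions. ZEB1 (10:31607424-31818742, plus strand), the ZEB gene with the higher level per length, had 2257, 1925 and 2090 counts in NC siRNA and 2421, 2717 and 2550 after BNC2 siRNA. The groups did not overlap, although the gap between them was small. Its level rose from 120.3 ± 10.8 CPM to 152.1 ± 10.8 CPM (SD, n = 3). This was a log2 fold change of 0.34 (SE 0.07, edgeR adjusted p = 4.5e-04), and 60.0% of the genes tested had a larger absolute log2 fold change. ZEB2 (2:145121931-145278624, minus strand), which encodes the closely related SIP1 repressor, had 1863, 1728 and 1575 counts in NC siRNA and 696, 723 and 726 after BNC2 siRNA. All 3 BNC2 siRNA libraries were far below the NC libraries. ZEB2 fell from 98.9 ± 5.37 CPM to 42.5 ± 3.23 CPM, which is 43.0% of the control level (log2 fold change -1.22, SE 0.07, edgeR adjusted p = 1.8e-10).

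**Figure D2:**
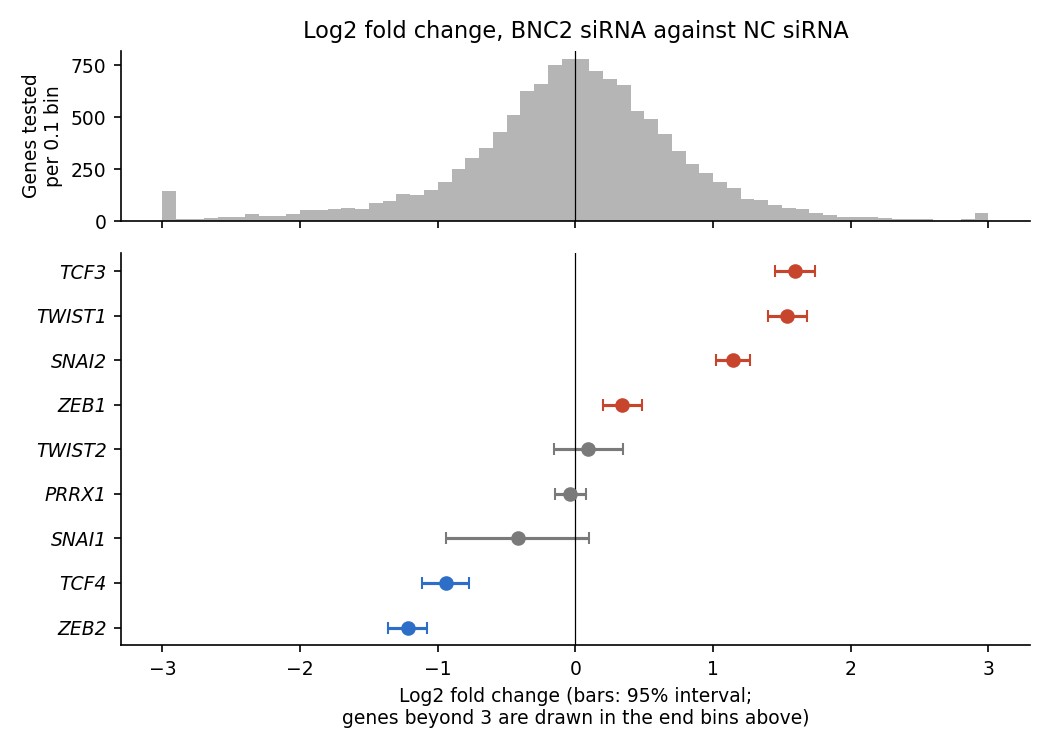
The upper panel is a histogram of the log2 fold change, BNC2 siRNA against NC siRNA, of all 12186 genes tested, and the lower panel gives that of each member with bars for the 95% interval (red, called higher; blue, called lower; grey, not called). TCF3, TWIST1 and SNAI2 lie above 1, ZEB2 lies below -1, and the bars of SNAI1, TWIST2 and PRRX1 cross 0.

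Among the TWIST genes, TWIST1 (7:19060614-19157259, minus strand), a bHLH factor of mesoderm and neural crest, had 424, 470 and 421 counts in NC siRNA. After BNC2 siRNA it had 1290, 1329 and 1092 counts. Every BNC2 siRNA library lay above every NC library. Its level rose 2.91-fold, from 25.2 ± 1.23 CPM to 73.2 ± 3.16 CPM (SD, n = 3), or by 1.54 on the log2 scale (SE 0.07, edgeR adjusted p = 1.1e-11). TWIST2 (2:239756673-239832230, plus strand), its paralog, had 171, 168 and 192 counts in NC siRNA and 216, 179 and 156 after BNC2 siRNA. The groups overlapped, and the highest value was that of BNC2 siRNA replicate 1. Its log2 fold change was 0.09 (SE 0.13, edgeR adjusted p = 0.52) with an interval from -0.16 to 0.35. Without BNC2 siRNA replicate 1 it was -0.02.

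The E proteins, the bHLH partners of TWIST1, also diverged. TCF3 (19:1609290-1652614, minus strand) had the largest log2 fold change of the members, with 627, 745 and 579 counts in NC siRNA and 1966, 1961 and 1782 after BNC2 siRNA. The BNC2 siRNA libraries were close to one another and far above the controls. TCF3 rose 3.02-fold, from 37.3 ± 3.84 CPM to 112.8 ± 1.94 CPM (SD, n = 3; log2 fold change 1.60, SE 0.07, edgeR adjusted p = 8.9e-12), and 7.10% of the genes tested changed by more. TCF4 (18:52889416-53332018, minus strand) had 1991, 1880 and 2318 counts in NC siRNA and 1035, 1109 and 988 after BNC2 siRNA. The groups did not overlap, and NC siRNA replicate 3 was the highest library. TCF4 fell from 119 ± 18.1 CPM to 61.9 ± 1.48 CPM, 52.0% of the control level (log2 fold change -0.94, SE 0.09, edgeR adjusted p = 4.6e-08). This TCF4 is the E protein, and not the TCF/LEF factor TCF7L2 for which the same name is often used. TCF7L2 was called higher, with a log2 fold change of 0.61 (edgeR adjusted p = 4.4e-07), so the row chosen under the shared name decides the direction.

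PRRX1 (1:170631869-170708562, plus strand) was not called. It had 3353, 3184 and 2977 counts in NC siRNA and 2964, 3297 and 2737 after BNC2 siRNA, and the groups overlapped. The log2 fold change was -0.04 (SE 0.06, edgeR adjusted p = 0.57) with an interval from -0.15 to 0.07, which is the narrowest among the members.

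GRHL2 (8:102504667-102681954, plus strand) was at the edge of detection. It had 0, 0 and 1 counts in the NC libraries and 1 count in each BNC2 siRNA library, under the floor of 3 counts in each of the 6. It did not pass the filter, no fold change is given, and a difference between the groups was not detectable at this depth. ELF3 and OVOL2, other factors of epithelial cells, had at most 4 and 1 counts in a library.

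Because the paired members of a family differed, the ratio of their reads was compared within each library, where library size cancels, with 0.5 added to each count. ZEB2 reads per ZEB1 read were 0.754 to 0.898 in NC siRNA and 0.266 to 0.288 after BNC2 siRNA, a 2.95-fold lower ratio (log2 difference -1.56, SE 0.08). TCF4 reads per TCF3 read were 2.52 to 4 and 0.527 to 0.566, a 5.79-fold lower ratio (log2 difference -2.53, SE 0.19). TWIST2 reads per TWIST1 read were 0.358 to 0.457 and 0.135 to 0.168 (log2 difference -1.45, SE 0.14). SNAI2 reads per SNAI1 read were 19 to 23.8 and 48 to 112 (log2 difference 1.65, SE 0.39), and that ratio rests on the few reads of SNAI1. The groups did not overlap in any of the 4 ratios, and each gave p = 0.1 in a two-sided exact permutation test, before and after adjustment over the 4. That is the smallest p that 3 libraries against 3 can give, so this test cannot reach 0.05 at that number of libraries.

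**Figure D3:**
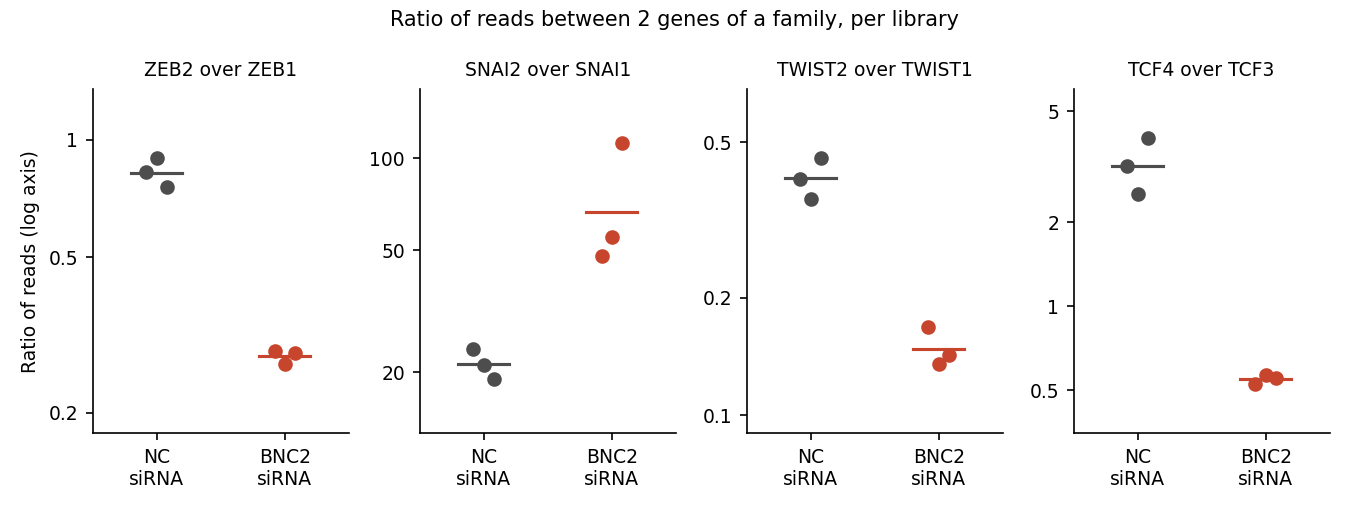
Ratio of reads between 2 members of a family in each library, on log axes, with NC siRNA in grey, BNC2 siRNA in red and a line at the geometric mean of each group. The ratios of ZEB2 to ZEB1, TWIST2 to TWIST1 and TCF4 to TCF3 are lower in every BNC2 siRNA library, and that of SNAI2 to SNAI1 is higher.

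To order the members by level, CPM were divided by the length of all annotated exons of a gene merged, in kb. In NC siRNA the order was PRRX1 (22.1 ± 0.713 CPM per kb), SNAI2 (15.7 ± 0.595), ZEB1 (13.9 ± 1.25), TWIST1 (12.6 ± 0.617), TWIST2 (6.04 ± 0.700), TCF3 (5.86 ± 0.603), TCF4 (4.08 ± 0.620), ZEB2 (3.78 ± 0.204) and SNAI1 (1.41 ± 0.159). The neighbours ZEB1 and TWIST1, TWIST2 and TCF3, and TCF4 and ZEB2 overlapped between libraries. After BNC2 siRNA the order was TWIST1 (36.6 ± 1.58 CPM per kb), SNAI2 (34.6 ± 1.66), PRRX1 (21.5 ± 0.893), TCF3 (17.7 ± 0.306), ZEB1 (17.6 ± 1.25), TWIST2 (6.43 ± 0.870), TCF4 (2.12 ± 0.0506), ZEB2 (1.63 ± 0.123) and SNAI1 (1.04 ± 0.407). TWIST1 and SNAI2 overlapped, as did TCF3 and ZEB1, and GRHL2 was lowest in both groups. The order depends on the length used. TCF4 and ZEB2 have 93 and 50 annotated transcripts. With the longest annotated transcript, they stood above TWIST2 and TCF3 in NC siRNA, at 14.3 and 10.3 CPM per kb. On that length ZEB1 (19.2) stood above SNAI2 (18.2) in NC siRNA. After BNC2 siRNA, PRRX1 (43.7) stood above SNAI2 (40.2), and ZEB1 (24.4) above TCF3 (23.8).

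On the same scale, the summed level of ZEB1 and ZEB2 was 16.2 to 18.7 CPM per kb in the NC libraries and 17.8 to 20.5 after BNC2 siRNA, so the ranges overlapped while the share of ZEB2 went from 20.0 to 22.9% down to 8.09 to 8.68%. With the longest transcript as length, the summed level of the ZEB genes was 27.4 to 31.3 and 26.8 to 30.8 CPM per kb, and the share of ZEB2 was 33.0 to 36.9% and 14.8 to 15.8%. These sums were chosen after the values had been seen. The sum of TCF3, TCF4 and TCF12, a further E protein, was 15.4 to 16.8 and 28.0 to 28.9 CPM per kb, and the share of TCF4 went from 22.9 to 31.0% to 7.34 to 7.65%. With the longest transcript as length, the sum of these E proteins was 30.14 to 32.33 and 43.87 to 45.25 CPM per kb. The share of TCF4 was then 41.6 to 52.1% and 16.4 to 17%. The sum of the TWIST genes was 17.7 to 19.5 and 40.7 to 45.0 CPM per kb, and that of SNAI1 and SNAI2 was 16.3 to 17.4 and 33.9 to 36.7.

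The table was counted by strand, and the reads on the opposite strand were examined for antisense transcription over the members. They made up 3.44% of the reads of both strands over TWIST1, 2.61% over TWIST2, 2.13% over TCF3 and at most 0.935% over each other member. Over ZEB2 there were 24, 17 and 15 opposite-strand reads in NC siRNA and 6, 2 and 5 after BNC2 siRNA, and over TCF4 there were 9, 12 and 16 against 4, 5 and 6. In both genes these reads were lower where the gene itself was lower, but this did not hold for every member. Over TWIST2, which was not called, there were 10, 5 and 5 opposite-strand reads in NC siRNA and 3, 3 and 3 after BNC2 siRNA. Over ZEB1, which rose, there were 28, 17 and 29 against 19, 23 and 13, and the groups overlapped. The annotated antisense gene ZEB1-AS1, transcribed away from the start of ZEB1, had 73, 85 and 58 counts and 105, 88 and 62 counts. Its groups overlapped and it was not called (log2 fold change 0.28, SE 0.19, edgeR adjusted p = 0.18). ZEB2-AS1 was listed at 0 counts in every library.

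The genes around these factors were then read from lists of their known partners, inhibitors, co-regulators and targets. Each count below stands beside the 72.9% of all genes tested that were called, 36.6% higher and 36.2% lower, and a list near those shares is no result about that list. Of the 4 ID genes, all were called, 3 higher and 1 lower, and their median was 1.11 on the log2 scale. ID4 rose from 1.63 ± 0.192 CPM to 16.5 ± 1.52 CPM (SD, n = 3; log2 fold change 3.34, SE 0.15, edgeR adjusted p = 9e-12). ID1 rose by a log2 fold change of 1.72 (edgeR adjusted p = 2.8e-11) and ID3 by 0.49 (adjusted p = 1e-05), while ID2 was lower at -1.20 (adjusted p = 4.9e-09). The ID genes, inhibitors of E proteins, held both directions, as did the E proteins TCF3 and TCF4. TCF12, the E protein outside the 10 members, was called higher at 0.48 (SE 0.10, edgeR adjusted p = 3.3e-04).

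Of 13 other genes described as EMT factors or their relatives, 6 passed the filter and 5 of these were called. TBX3, TCF12 and the chromatin protein HMGA2 were higher, with log2 fold changes of 0.56, 0.48 and 0.44, and FOXC1 (-1.08) and SOX4 (-0.27) were lower. YBX1 was not called (-0.10, edgeR adjusted p = 0.11), but was without NC siRNA replicate 1 (-0.16, adjusted p = 0.0082). SNAI3, FOXC2, FOXQ1, GSC and LBX1 had at most 2 counts in any library, so the absence of a call for them says nothing of a change.

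**Figure D4:**
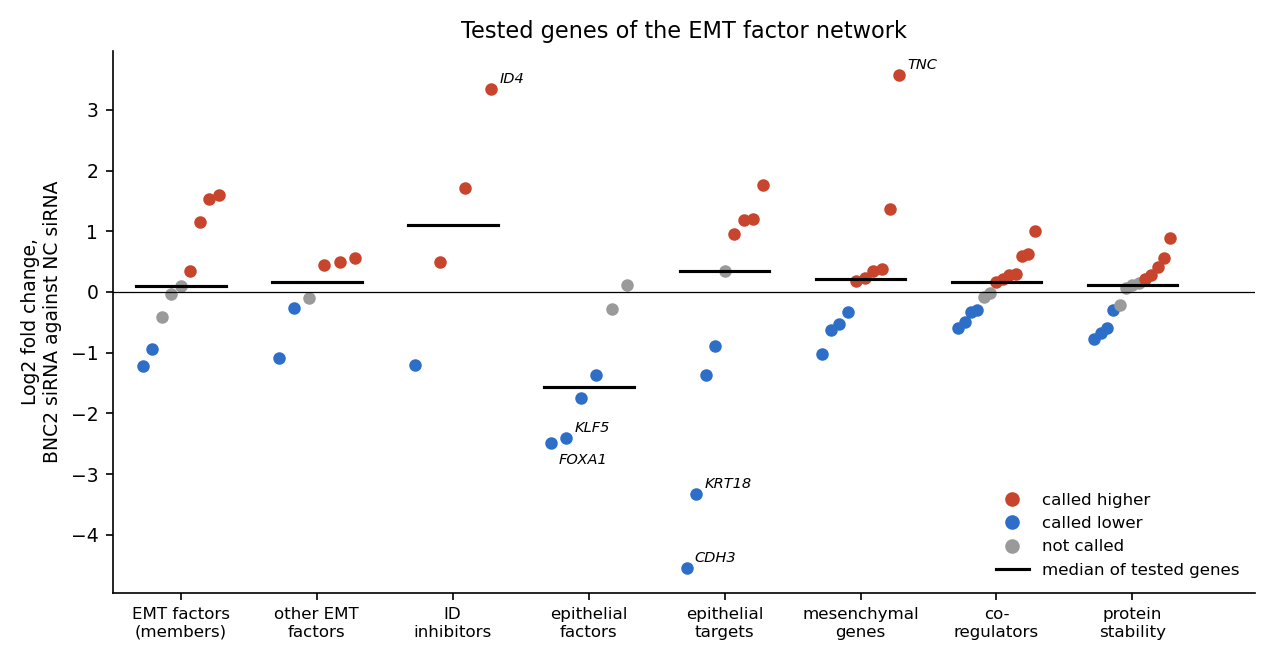
Log2 fold change, BNC2 siRNA against NC siRNA, of the tested genes of each list (red, called higher; blue, called lower; grey, not called), with a line at the median of each list. The names are printed for genes beyond 2 in either direction. The median is -1.56 for the epithelial factors, or -0.83 without FOXA1 and TP63, and 1.11 for the ID genes, while CDH3, KRT18 and TNC lie farthest from 0 among the target genes.

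Among factors of epithelial cells other than GRHL2, 6 of 13 passed the filter. 4 were lower and none was higher. KLF5, a zinc finger factor of epithelia, fell from 22.2 ± 0.917 CPM to 4.17 ± 0.0960 CPM (SD, n = 3; log2 fold change -2.41, edgeR adjusted p = 1e-11), and GRHL1, the relative of GRHL2 that was measured, fell from 3.80 ± 0.243 CPM to 1.46 ± 0.0614 CPM (log2 fold change -1.37, adjusted p = 1.1e-05). FOXA1 (-2.49) and TP63 (-1.75) were called lower too, but passed the filter only through the NC libraries, so that the direction of their difference was fixed by the filter. The median log2 fold change was -1.56 over the 6 and -0.83 over the other 4. KLF4 and GATA3 were not called.

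The epithelial genes that SNAIL and ZEB proteins are known to repress did not share a direction. Of 24 listed, 9 passed the filter, 4 were called higher and 4 lower, and their median log2 fold change was 0.34, or 0.64 without PKP3, CDH3 and KRT18, which passed the filter only through 1 group. CDH1 had 1 count in a single NC library and 0 in the others. MUC1, a membrane mucin, rose from 32.2 ± 6.25 CPM to 109 ± 13.1 CPM (SD, n = 3; log2 fold change 1.75, SE 0.11, edgeR adjusted p = 4.2e-10), and DSP, the desmosomal protein desmoplakin, rose from 1.17 ± 0.108 CPM to 2.67 ± 0.473 CPM (log2 fold change 1.19, adjusted p = 2.9e-04). INADL (0.95), a polarity protein, was higher as well, and PKP3 (1.19) passed the filter only through the BNC2 siRNA libraries. CDH3, which encodes P-cadherin, had 191, 178 and 171 counts in NC siRNA and 8, 10 and 4 after BNC2 siRNA (log2 fold change -4.55), and KRT18, a keratin, had 94, 90 and 59 and 11, 5 and 7 (log2 fold change -3.33). Both passed the filter only through the NC libraries. LLGL2 (-1.37) and CGN (-0.89), of cell polarity and tight junctions, were lower too, and OCLN, the junction protein occludin, was not called at 0.34 (edgeR adjusted p = 0.054), but was called higher in 5 of 14 alternatives, among them the likelihood ratio test (adjusted p = 0.038).

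The E-box CACCTG, or CAGGTG on the other strand, is the element that SNAIL and ZEB proteins bind. In RefSeq promoter windows (GRCh38.p14, 250 bases before to 50 after a start), it was present in 24.1% of 27305 genes, and in 9 of the 12 listed epithelial targets that had a window, which had been listed as targets of these factors. Among the members, 6 had a window, and only ZEB1 held the element. It was also in 4 of the 10 listed epithelial factors that had a window. Of the tested genes of these lists with the element, MUC1, DSP, INADL (PATJ in RefSeq) and ZEB1, which were called higher, held 2, 2, 3 and 4 distinct sites, OCLN, which was not called, held 3, and FOXA1, which was called lower, held 1. FOXA1 passed the filter only through the NC libraries, so the direction of its difference was fixed by the filter, and nothing is read from the calls of these few genes. 1 stretch of each is printed with the element in capitals. That of MUC1 holds both of its sites.
MUC1 (chr1:155192980-155193009, minus strand): gcggggttttgtCACCTGtCACCTGctccg
DSP (chr6:7541574-7541603, plus strand): gaagaaaccggcCAGGTGtggcctaggcgc
INADL (chr1:61742438-61742467, plus strand): gggagggcctgcCAGGTGaggcgcggtcac
OCLN (chr5:69492502-69492531, plus strand): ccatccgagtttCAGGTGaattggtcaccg
FOXA1 (chr14:37595354-37595383, minus strand): gcggccgccttgCAGGTGcacctcgggctt
ZEB1 (chr10:31318348-31318377, plus strand): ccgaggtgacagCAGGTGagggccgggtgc

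The miRNAs of the miR-200 family pair with ZEB1 and ZEB2 transcripts and are themselves repressed by ZEB proteins. 2 of them, which stand for the 2 seeds of the family, are shown with bases 2 to 8 in capitals (RefSeq, GRCh38.p14).
hsa-miR-200a-3p: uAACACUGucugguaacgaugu
hsa-miR-200b-3p: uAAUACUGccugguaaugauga

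CAGTATT, the match to the seed that miR-200b shares with miR-200c and miR-429, occurred 6 times in the 3′ UTR of ZEB1 and 5 times in that of ZEB2, once each in SNAI2 and TCF4, and in 20.2% of tested genes with a 3′ UTR (43.1% of those with one at least as long as that of ZEB1). CAGTGTT, for miR-200a and miR-141, occurred 3 times in ZEB1, 4 times in ZEB2, at 2 places in TCF4 and once in GRHL2, and in 22.1% of genes (46.7% of those with a long 3′ UTR). The 6 precursor rows MIR200A, MIR200B, MIR200C, MIR429, MIR141 and MIR205, and the host gene MIR205HG, were listed at 0 counts in every library. Libraries of poly(A) RNA do not measure mature miRNAs, so nothing can be read from these zeros about them.

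All 10 genes of the mesenchymal list passed the filter and were called, 6 higher and 4 lower, and the median of the list was 0.21. CDH2, which encodes N-cadherin, rose from 152.1 ± 4.03 CPM to 391 ± 5.08 CPM (SD, n = 3; log2 fold change 1.36, SE 0.05, edgeR adjusted p = 1.5e-12). TNC, the matrix protein tenascin C, rose from 62.4 ± 4.59 CPM to 741 ± 10.4 CPM (log2 fold change 3.57, SE 0.07, edgeR adjusted p = 1.8e-16). FN1 (0.39), ITGA5 (0.35), CDH11 (0.23) and VIM (0.18) were higher by less, and ACTA2 (-1.03), S100A4 (-0.62), SPARC (-0.52) and POSTN (-0.33) were lower. VIM and CDH11 were not called without NC siRNA replicate 2 (edgeR adjusted p = 0.058 and 0.052), nor was VIM when scaled by total counts (log2 fold change 0.10, adjusted p = 0.090).

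The co-regulators that SNAIL, ZEB and TWIST proteins recruit were all measured. Of 13, 7 were higher, 4 lower and 2 not called, and the median of the list was 0.17. HDAC1, a histone deacetylase, rose 2.00-fold (log2 fold change 1.00, SE 0.06, edgeR adjusted p = 2e-10), and its paralog HDAC2 fell by 0.49 on the log2 scale (adjusted p = 1.7e-06). SIN3A (0.63) and SMARCA4 (0.59) were higher, and EZH2 (-0.59), KAT2B (-0.33) and CTBP1 (-0.31) were lower, while CTBP2 and SUV39H1 were not called. EP300, the smallest of the calls in this list at 0.17, did not pass the threshold when NC siRNA replicate 2 or 3 or BNC2 siRNA replicate 2 or 3 was left out.

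Of 13 genes whose products set the stability or localisation of SNAIL, TWIST and ZEB proteins, 5 were higher, 4 lower and 4 not called, and the median of the list was 0.11. FBXW7, one of the higher calls, was near the threshold (edgeR adjusted p = 0.044) and lost its call in 8 of 14 alternatives, with adjusted p up to 0.23. FBXL14, not called at -0.22 (edgeR adjusted p = 0.24), was called lower with both strands summed (-0.61, adjusted p = 0.0017) and without NC siRNA replicate 1 (-0.45, adjusted p = 0.0024). The ubiquitin ligase gene SIAH2 rose by 0.88 (edgeR adjusted p = 1.8e-08), LOXL2, a lysyl oxidase that binds SNAIL, by 0.56 (adjusted p = 4.8e-08) and GSK3B, the kinase that marks SNAIL for breakdown, by 0.41 (adjusted p = 1.8e-04). The F-box genes FBXO11 (-0.77) and BTRC (-0.60) and the deubiquitinase gene USP27X (-0.67) fell. These are transcript levels, and the amount of the proteins was not measured.

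For each called member, the genes whose values across the 6 libraries were most like it were sought by the distance between log2 CPM profiles centred on their means. The nearest was HDLBP for SNAI2 (distance 0.077), DHX37 for TWIST1 (0.058), C4orf46 for ZEB1 (0.058), NEDD4L for ZEB2 (0.072), KLHDC3 for TCF3 (0.13) and PAQR8 for TCF4 (0.17). With 6 libraries in 2 groups the distance follows mostly the size of the group difference, and no member was among the 3 genes nearest to another.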

How the data were processed

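RNA of BT549 cells was selected by poly(A) and sequenced single-end on a NextSeq500 (3 NC siRNA and 3 BNC2 siRNA libraries, described in the study's methods as biological replicates). The authors aligned reads with STAR 2.6.1d to hg19 with a UCSC annotation and deposited whole-number counts per gene. Per-library tables gave counts by strand, and the series table equalled the reverse-strand column in all 23346 genes. Reads not counted for any gene made up 37.7 to 41.1% and stayed out of library sizes. They include reads that aligned to several places, at 8.68 to 9.71% of reads. From the counts, genes above 1 CPM in at least 3 libraries were tested with edgeR 4.0.16 (TMM, quasi-likelihood test, R 4.3.3), with p-values adjusted by Benjamini-Hochberg over all 12186 genes and calls at 0.05. The study used the likelihood ratio test of edgeR, which was an alternative here, as was DESeq2 1.42.0. Other alternatives were other size factors, other filters, both strands summed, a replicate block and each library left out. The fit was tested on simulated data. Gene positions, 3′ UTRs and lengths came from GENCODE 44 on GRCh37, where 96.9% of tested symbols matched, and promoters and miRNAs from RefSeq on GRCh38.p14. 6 of the 10 members had a promoter window. Counting error alone limits genes of a few counts. Named genes were the members, BNC2, the nearest genes by profile, the antisense genes, TCF7L2, genes at most at 3 counts, and up to 3 called genes of each list with the largest rise and 3 with the largest fall. Other list genes that the text names (such as CDH11, VIM, EP300, KLF4 and OCLN) were chosen after their values were seen. Members and lists were chosen with earlier results of these data known. Labels and methods name different transfection reagents.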

Additional observations from a re-analysis of the deposited data

Results flagged for a closer look

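2 results outside the counts used for the comparisons stood above the control samples. Reads on the strand opposite to TWIST1 were at 0.956 to 1.45 CPM in NC siRNA and 1.52 to 3.05 CPM after BNC2 siRNA, 1.79-fold higher in the mean. As a share of the reads of both strands over TWIST1 they were 4.78% and 2.96%. Reads on the strand opposite to TCF3 were at 0.421 to 1.40 CPM and 1.86 to 2.37 CPM, 2.08-fold higher in the mean, with shares of 2.79% and 1.91%. In both genes the gene strand rose as well, and whether the opposite-strand reads are transcripts of their own was not tested.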

How the results depend on the processing

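The numbers of members called higher (4) and lower (2) were kept under all 14 alternatives, and of 126 values of the members under them only that of TWIST2 changed direction, to -0.018 without BNC2 siRNA replicate 1. Leaving out each library gave log2 fold changes of -0.68 to -0.16 for SNAI1 and -0.018 to 0.17 for TWIST2. The replicate numbers did not pair the samples (correlations of same-numbered libraries -0.21, -0.081 and -0.13); with the replicate block, 8400 genes were called in place of 8879, and ZEB2 was at -1.22. EP300 and FBXW7 lost their call with it (edgeR adjusted p = 0.055 and 0.066). Scaled by total counts, VIM (0.10), EP300 (0.093) and FBXW7 (0.13) lost and YBX1 (-0.18) and CTBP2 (-0.16) gained a call. Lower calls among the TCF/LEF genes were 2 with no filter and with filterByExpr, in place of 1. Lower calls among epithelial factors and among epithelial targets were each 2 to 4 when a library was left out, since without an NC library genes passing only through that group are not tested. Directions reversed, none of them called, for SIAH1 (-0.0052) scaled by total counts, SIAH1 (-0.048) without BNC2 siRNA replicate 1, and SUV39H1 with no filter (0.019) and without BNC2 siRNA replicate 2 (0.0072) or 3 (0.013). Over the libraries left out, SUV39H1 ranged from -0.051 to 0.013 and SIAH1 from -0.048 to 0.14. Per kb of longest transcript, levels in NC and BNC2 siRNA were 18.2 and 40.2 CPM for SNAI2, 15.4 and 44.9 for TWIST1, 8.67 and 9.24 for TWIST2, 19.2 and 24.4 for ZEB1, 10.3 and 4.43 for ZEB2, 44.9 and 43.7 for PRRX1, 14.3 and 7.42 for TCF4 and 7.88 and 23.8 for TCF3. Depth limits GRHL2, CDH1 and SNAI1.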
